A study of Mus musculus with 10 samples.

Results

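The genes described here are 7 genes of cardiac pacemaking: the pacemaker channel genes *Hcn2*, *Hcn3* and *Hcn4*, the sinus node transcription factors *Shox2* and *Isl1*, and the Popeye genes *Popdc2* and *Bves*. They were chosen by name from the 23195 genes of the deposited expression table, and all 7 are in it. The table compares polyA RNA of whole hearts at embryonic day 13.5 (E13.5). All 10 embryos were males of the C57BL6/J strain, 5 of them wild type and 5 *Nos1ap* null. The null embryos are homozygous for the tm1d allele, from which Cre recombinase of a CMV-Cre line removed exon 4 of *Nos1ap*. The deletion is constitutive and reaches every cell of the embryo, so it is not limited to heart muscle or to pacemaker cells. *Nos1ap* encodes an adaptor of neuronal nitric oxide synthase and lies at a locus associated with the QT interval in people. The comparison asks whether loss of *Nos1ap* alters gene expression in the heart before the stage at which most null animals are lost.

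HCN channels open when the membrane hyperpolarizes, carry the inward pacemaker current, and open more readily when cyclic AMP binds to them. In the embryo, HCN4 is the main such channel of the developing sinus node, whose cells keep a pacemaker program under *Shox2* and *Isl1* while the surrounding muscle takes on the working atrial program. Popeye proteins are membrane proteins that bind cyclic AMP, and mice lacking *Popdc2* or *Bves* develop sinus node dysfunction under stress. The heart RNA analysed here comes mostly from working muscle, in which the sinus node is a small region. In such bulk samples, fewer cells of a type and less RNA per cell cannot be told apart.

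The deposited table gives the mean normalized count of each group, that is, read pairs divided by the library's size factor and averaged over its libraries. Whole read pairs of single libraries were worked out from these means where only one set of whole numbers plausibly gives the mean to its last printed digit. This settled 5 of the 7 genes. *Popdc2* and *Bves* have means above 1000, the limit up to which counts were searched for, so these genes have group means and no error. Libraries are numbered 1 to 5 within each genotype by falling size factor, without regard to the labels' own numbering. The libraries held an estimated 11328000 to 14023000 read pairs on genes. *Nos1ap* itself was at 144 ± 14.4 normalized counts in wild type and 39.8 ± 5.20 in the null (SD, n = 5 each), with no overlap between groups (exact two-sided permutation test *P* = 0.00794, the smallest that 5 against 5 libraries can give). All 10 cardiomyocyte markers had group means of at least 3163 normalized counts, as in heart muscle. Wild-type library 3 stood apart. The 5 autonomic neuron genes with settled counts (*Phox2a*, *Elavl4*, *Th*, *Dbh* and *Ret*) summed to 580 normalized counts there, against 55.9 to 75.5 in the other wild-type libraries and 60.3 to 75.1 in the null libraries. *Phox2a*, a defining factor of autonomic neurons, was at 39.7 in that library, at 0.968 to 3.10 in the other wild-type libraries and at 0.900 to 4.30 in the null. Differences of the 5 settled genes are therefore given with and without this library, which cannot be done for *Popdc2* and *Bves*.

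The HCN genes share the pore through which the current flows. The reference sequence around the selectivity filter is shown for the 3 genes described, because this conserved stretch bears on whether their reads can be told apart. Each stretch is 63 bases of exon 4 (of 8 exons) on GRCm38, written 5′ to 3′ in the direction of transcription, with the 9 bases of the filter codons in capitals. *Hcn2* lies at chr10:79728932-79728994 (plus strand), *Hcn3* at chr3:89150979-89151041 (minus strand) and *Hcn4* at chr9:58855564-58855626 (plus strand).
Hcn4: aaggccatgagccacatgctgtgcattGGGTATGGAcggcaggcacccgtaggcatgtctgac
Hcn3: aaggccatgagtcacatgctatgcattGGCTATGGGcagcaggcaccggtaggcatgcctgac
Hcn2: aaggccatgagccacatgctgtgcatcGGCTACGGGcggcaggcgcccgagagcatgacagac
*Hcn3* and *Hcn4* differ at 7 of these 63 bases, *Hcn2* and *Hcn4* at 10, and *Hcn2* and *Hcn3* at 12. Over the whole annotated transcripts, the longest run shared by any pair of these genes was 33 bases (*Hcn2* and *Hcn3*), and no pair shared a run as long as a read of 100 bases. The coding sequences of these transcripts encode 863 residues for *Hcn2*, 779 for *Hcn3* and 1201 for *Hcn4*.

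*Hcn4*, on chromosome 9 (58823412 to 58863175, plus strand), had most of the reads of these 3 genes, and its mean was slightly higher in the null. Its normalized counts were 382, 416, 359, 444 and 403 in wild-type libraries 1 to 5, and 428, 445, 457, 435 and 454 in null libraries 1 to 5. All 5 null libraries lay above the wild-type mean, but the groups overlapped, since wild-type library 4 was above null libraries 1 and 4. The means were 401 ± 32.3 in wild type and 444 ± 12.5 in the null (SD, n = 5 each), a ratio of 1.11. On the log2 scale, limma gave a difference of 0.15 (SE 0.0575, 95% interval 0.029 to 0.27), which did not pass the test across all protein-coding genes (adjusted *P* = 0.998, limma with Benjamini-Hochberg adjustment). Taken as a single gene, the exact two-sided permutation test gave *P* = 0.0238. Wild-type library 3 had the lowest *Hcn4* count. Without it the ratio was 1.08 and the exact permutation *P* = 0.0476, and the 95% interval of the limma difference, -0.0077 to 0.23 around 0.11, included 0.

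*Hcn3*, on chromosome 3 (89146074 to 89160196, minus strand), was near the lower limit of what these libraries measure. Its normalized counts were 10.4, 11.6, 39.7, 15.5 and 16.6 in wild-type libraries 1 to 5, and 11.7, 12.1, 19.2, 23.6 and 15.2 in null libraries 1 to 5. One library, wild-type library 3, was well above the rest, and all others lay in one range. The means were 18.8 ± 12.0 and 16.4 ± 5.05 (SD, n = 5 each), a ratio of 0.872 null over wild type. The limma difference was -0.069 on the log2 scale (SE 0.315, 95% interval -0.73 to 0.59, Benjamini-Hochberg adjusted *P* = 0.998), and the exact permutation test gave *P* = 0.825. Without wild-type library 3 the direction turned, with a ratio of 1.21 and a limma difference of 0.23 (exact permutation *P* = 0.357). *Hcn3* was highest in the library with the neuron genes, and their part in the result was not tested.

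*Hcn2*, on chromosome 10 (79716634 to 79736108, plus strand), encodes an HCN channel best known from neurons and the conduction system. It was the lowest of the 7 genes, at 7.83, 8.71, 18.3, 14.4 and 6.21 normalized counts in wild-type libraries 1 to 5 and 13.5, 11.1, 14.1, 6.44 and 14.2 in null libraries 1 to 5. The groups overlapped over nearly their whole range, and wild-type library 3 was again the highest. The means were 11.1 ± 5.09 and 11.9 ± 3.28 (SD, n = 5 each), a ratio of 1.07. The limma interval of the difference ran from -0.54 to 0.82 on the log2 scale around 0.14 (SE 0.325, Benjamini-Hochberg adjusted *P* = 0.998), so a difference of moderate size in either direction was not detectable at 6 to 18 read pairs per library. The exact permutation test gave *P* = 0.802, and *P* = 0.278 without wild-type library 3, where the ratio was 1.27.

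**Figure D1:**
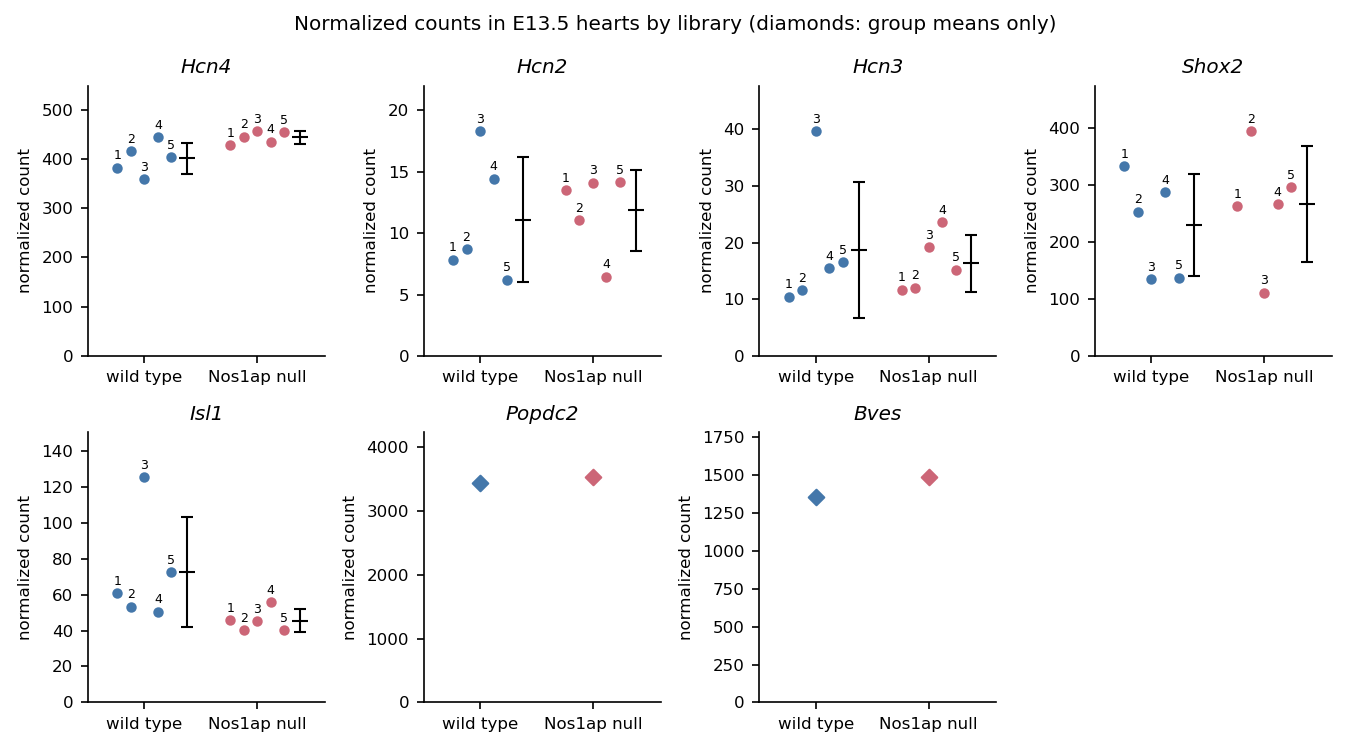
Normalized counts (y axis, linear from 0) of *Hcn4*, *Hcn2*, *Hcn3*, *Shox2* and *Isl1* in each wild-type (blue) and *Nos1ap* null (red) library, with the library number at each point and the group mean ± SD as a black bar. For *Popdc2* and *Bves* a diamond marks the authors' group mean, which has no error. *Hcn4* is tightly grouped, *Shox2* is spread in both genotypes, and wild-type library 3 holds the highest *Isl1*, *Hcn3* and *Hcn2* values.

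The balance among *Hcn2*, *Hcn3* and *Hcn4* within a library does not depend on the size factors, so it was compared as well. *Hcn4* made up 95.4, 95.3, 86.1, 93.7 and 94.7% of the summed normalized counts of these 3 genes in wild-type libraries 1 to 5, and 94.4, 95.1, 93.2, 93.5 and 93.9% in null libraries 1 to 5. Except for wild-type library 3, every library was between 93.2 and 95.4%. The mean *Hcn4* share was 93.0 ± 3.95% in wild type and 94.0 ± 0.736% in the null (SD, n = 5 each; exact permutation *P* = 0.921, and 0.929 adjusted by Benjamini-Hochberg over the 3 shares). Without wild-type library 3 the wild-type mean was 94.8%, above the null mean, and the exact permutation *P* was 0.183. *Hcn3* held 4.39% in wild type and 3.46% in the null (exact permutation *P* = 0.651), and *Hcn2* held 2.57 and 2.51% (exact permutation *P* = 0.929). Per kilobase of exon, *Hcn4* made up 89.2% of the summed level in wild type and 90.5% in the null, *Hcn3* 6.12 and 4.90%, and *Hcn2* 4.68 and 4.62%. Among these 3 genes, *Hcn4* was therefore the predominant transcript by either measure in each of the 10 libraries, with at least 79.3% per kilobase.

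**Figure D2:**
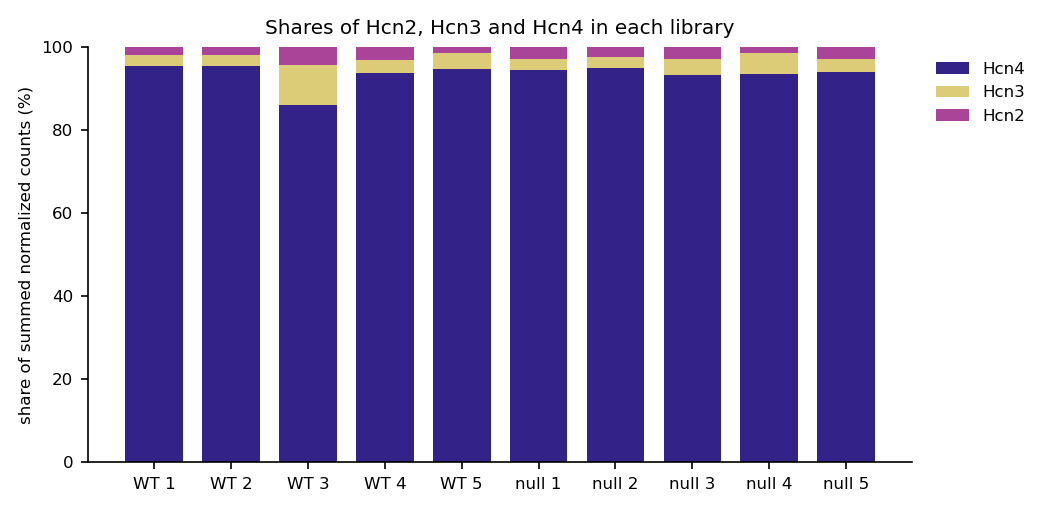
Share of *Hcn2*, *Hcn3* and *Hcn4* in the summed normalized counts of these 3 genes (y axis, percent) for each of the 10 libraries. *Hcn4* takes 86.1% in wild-type library 3 and at least 93.2% in every other library.

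*Shox2*, on chromosome 3 (66971727 to 66981771, minus strand), encodes a homeodomain factor that holds back the working muscle program in the sinus venosus. It varied widely between hearts of the same genotype. Its normalized counts were 333, 254, 135, 288 and 138 in wild-type libraries 1 to 5, and 263, 395, 111, 266 and 296 in null libraries 1 to 5. The values fell into a lower set, formed by wild-type libraries 3 and 5 and null library 3, and a higher set with the other 7 libraries. Both genotypes had libraries in each set, and the highest library had 3.56 times the count of the lowest. The coefficient of variation was 39.0% in wild type and 38.3% in the null. For comparison, the median over the 3058 tested genes with a mean of 100 to 300 was 8.63%, and their 95th percentile was 17.8%. Genes whose counts did not settle are not among them, and a wide spread between libraries makes settling less likely. The means were 230 ± 89.5 and 266 ± 102 (SD, n = 5 each), a ratio of 1.16. With this spread, the 95% interval of the limma difference ran from -0.72 to 1.12 around 0.20 (SE 0.402, Benjamini-Hochberg adjusted *P* = 0.998), and the exact permutation test gave *P* = 0.579. Without wild-type library 3 the ratio was 1.05. The counts of *Shox2* are less securely settled than those of the other genes, because 0.0157 other sets of counts were expected by chance to lie as near in wild type and 0.0221 in the null.

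The spread of *Shox2* was set beside that of the 12 tested genes of the sinus node list, of which 3 had Pearson's r above 0.7 with it. *Vsnl1*, a calcium sensor gene expressed in the sinus node, was at 272, 247, 124, 269 and 125 normalized counts in wild-type libraries 1 to 5 and at 237, 315, 178, 249 and 242 in null libraries 1 to 5. The same 3 libraries were the lowest for both genes, and null library 2 was the highest for both. Over the 10 libraries, Pearson's r between *Shox2* and *Vsnl1* was 0.90 (Spearman's rho 0.87) on the log2 scale. It was 0.99 within wild type, 0.96 within the null and 0.89 without wild-type library 3. This placed *Vsnl1* 5th among 8595 protein-coding genes ranked by r with *Shox2*. Of the other tested genes of the list, *Kcnj3*, a subunit of the acetylcholine-gated potassium channel, had r = 0.76 and *Rgs6*, a regulator of signalling through that channel, had r = 0.73. *Tbx3*, the repressor that keeps working muscle genes off in pacemaker tissue, went the other way with r = -0.64, and *Gjc1*, the connexin 45 gene, had r = -0.66. The remaining 7 genes lay between -0.35 and 0.45. Within a genotype r rests on few libraries and could differ widely. For *Kcnj5*, one of these 7, it was 0.98 within wild type and 0.038 within the null. For *Gjc1* it was -0.45 and -0.90, and for *Kcnj3* 0.84 and 0.72. These correlations describe 10 libraries, in each of which both genes are scaled by the same size factor, and carry no test. *Hcn4* did not share this pattern, with r = 0.25 to *Shox2*. Limb and craniofacial mesenchyme, a tissue outside the heart, also uses *Shox2*. The summed level of 9 of its markers was 845, 932, 1066, 888 and 1068 normalized counts in wild-type libraries 1 to 5. In null libraries 1 to 5 it was 873, 788, 969, 915 and 858. The 3 libraries lowest in *Shox2* thus had the highest sums of their genotype. The part of these markers in the spread of *Shox2* was not tested.

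*Isl1*, on chromosome 13 (116298281 to 116309689, minus strand), encodes a LIM homeodomain factor of the second heart field and the sinus node that is also present in autonomic neurons. It had the lowest ratio of the 7 genes. Its normalized counts were 60.9, 53.2, 125, 50.6 and 72.4 in wild-type libraries 1 to 5, and 45.9, 40.2, 45.4, 55.8 and 40.3 in null libraries 1 to 5. All 5 null libraries were below the wild-type mean, and the groups overlapped only through null library 4, which was above wild-type libraries 2 and 4. The means were 72.5 ± 30.7 in wild type and 45.5 ± 6.37 in the null (SD, n = 5 each), a ratio of 0.628. The limma difference was -0.59 on the log2 scale (SE 0.204, 95% interval -1.02 to -0.15), which did not pass the test across genes (Benjamini-Hochberg adjusted *P* = 0.998). The exact two-sided permutation test of the single gene gave *P* = 0.0238. Wild-type library 3, with the neuron genes, had the highest *Isl1* count. Without it the wild-type mean was 59.3, the ratio 0.768, the limma difference -0.37 and the exact permutation *P* = 0.0317. In the other 9 libraries *Isl1* was at 50.6 to 72.4 in wild type and 40.2 to 55.8 in the null. The part of the neuron genes in this difference was not tested.

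*Isl1* and *Hcn4* moved in opposite directions across libraries. They are described because their r was the farthest from 0 among all pairs of the settled genes. The other pairs ran from -0.62 to 0.70. Pearson's r on the log2 scale was -0.89 over 10 libraries (Spearman's rho -0.88), -0.78 without wild-type library 3, -0.85 within wild type and -0.52 within the null. The library with the highest *Isl1* count, wild-type library 3, had the lowest *Hcn4* count. These values describe the same 10 libraries and carry no test.

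**Figure D3:**
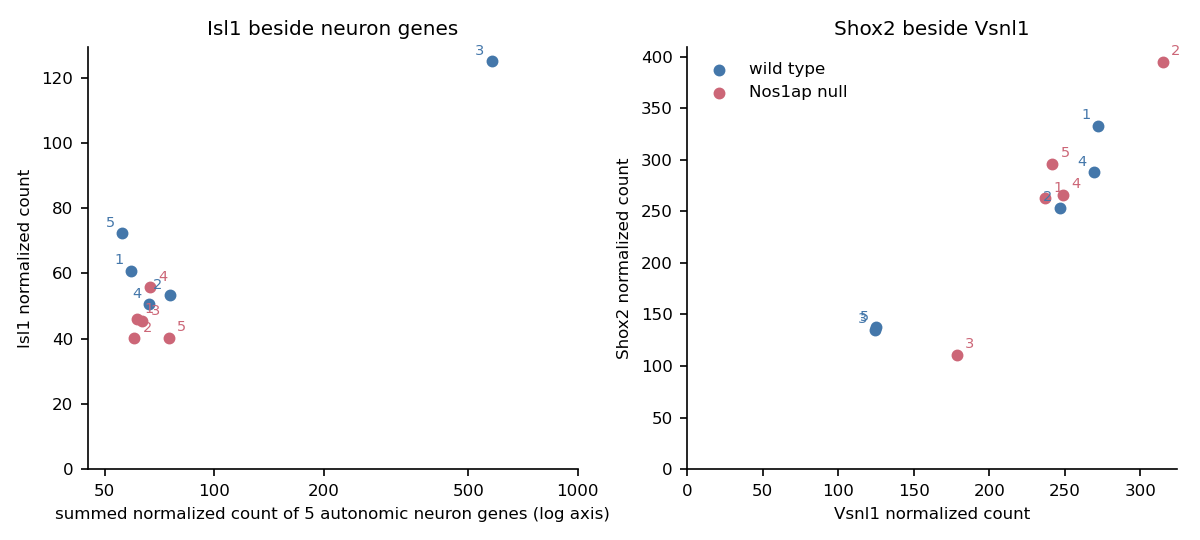
Left, *Isl1* normalized count against the summed normalized count of 5 autonomic neuron genes (log axis). Right, *Shox2* against *Vsnl1* normalized counts. Points are libraries (blue wild type, red *Nos1ap* null) with their numbers. Wild-type library 3 stands alone at 580 summed neuron counts and 125 *Isl1* counts, and *Shox2* and *Vsnl1* are lowest together in wild-type libraries 3 and 5 and null library 3.

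Among all 10508 protein-coding genes tested, limma called 3 genes at an adjusted *P* under 0.05 (0.0285%), 1 of them higher in the null (0.00952%) and 2 lower (0.019%), and 0 of the 5 settled genes were among them. At an unadjusted *P* under 0.05 it gave 356 genes (3.39%), with *Hcn4* and *Isl1* among them and *Hcn2*, *Hcn3* and *Shox2* not. Without wild-type library 3, *Hcn4* no longer had an unadjusted limma *P* under 0.05 and *Isl1* still did. Groups did not overlap for 82 genes (0.78%) and for 0 of the 5. Genes with a wide spread between libraries settle less readily, so some are missing from these shares. The median limma difference over all tested genes was -0.0045 on the log2 scale. Limma was also run on simulated libraries with the spread of these data, in which 200 of 10508 genes were changed. It called 18% of genes changed by 0.25 on the log2 scale, 68.5% of those changed by 0.5 and 88.5% of those changed by 1.0. These rates are for all changed genes together, and the rate for the 5 settled genes was not tested. Their limma SE was 0.0575 for *Hcn4*, 0.204 for *Isl1*, 0.315 for *Hcn3*, 0.325 for *Hcn2* and 0.402 for *Shox2*.

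**Figure D4:**
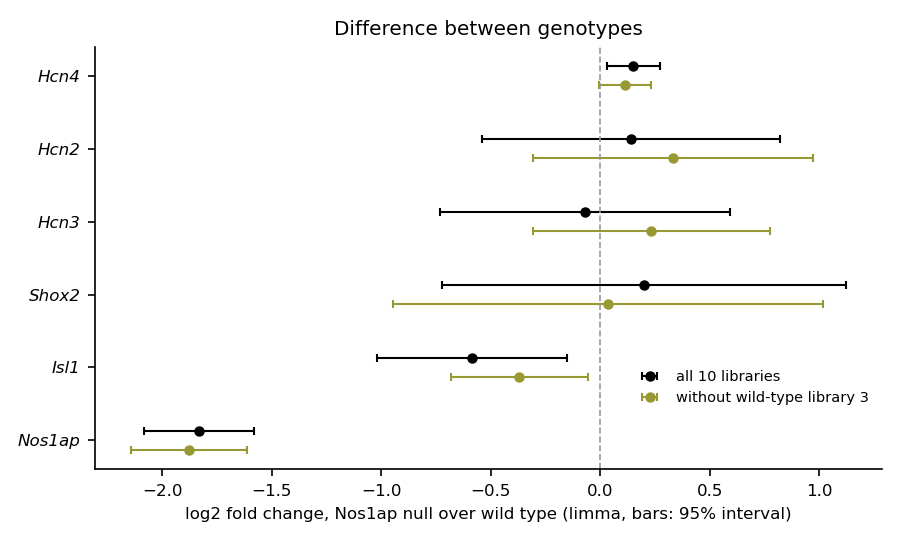
Difference between *Nos1ap* null and wild type on the log2 scale (x axis) by limma, with 95% intervals as bars, for all 10 libraries (black) and without wild-type library 3 (olive). The intervals of *Hcn2*, *Hcn3* and *Shox2* span 0 with both sets of libraries, that of *Hcn4* spans 0 only without wild-type library 3, that of *Isl1* lies below 0 with both sets, and *Nos1ap* is at -1.83 with all libraries.

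The Popeye genes had higher counts than any other of the 7. *Popdc2*, on chromosome 16 (38362209 to 38378216, plus strand), had an authors' mean of 3440 normalized counts in wild type and 3527 in the null, a ratio of 1.03 and a log2 ratio of 0.036. *Bves*, also named Popdc1, on chromosome 10 (45335772 to 45372479, plus strand), had authors' means of 1352 and 1484, a ratio of 1.10 and a log2 ratio of 0.13. Their library counts were not searched for, so neither was tested here. To set these ratios in context, 2359 protein-coding genes had a mean of 1000 to 5000, and their median absolute log2 ratio was 0.0291. An absolute ratio at least that of *Bves* was found for 42 of them (1.78%), and one at least that of *Popdc2* for 955 (40.5%). *Popdc3*, the other Popeye gene, lies beside *Bves* and had settled counts of 242, 231, 163, 221 and 223 in wild-type libraries 1 to 5 and 239, 205, 225, 262 and 229 in null libraries 1 to 5. These groups overlapped, with means of 216 ± 30.8 and 232 ± 20.8 (SD, n = 5 each), a limma difference of 0.11 and an exact permutation *P* of 0.429. Wild-type library 3 was the lowest here, and without it the log2 ratio of means was 0.015 (exact permutation *P* = 0.849) in place of 0.10. Per kilobase of exon, *Popdc2* was 4.97 times *Bves* in wild type and 4.64 times in the null. No pair of Popeye genes shared a run longer than 14 bases, so a read of 100 bases cannot match both genes of a pair in full.

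Ordered by level per kilobase of exon, averaged over both genotypes, *Popdc2* led at 1476 normalized counts per kilobase and *Bves* followed at 308. *Shox2* was at 74.9 with a range over libraries of 33.5 to 119, and *Hcn4* was at 69.0 with a range of 58.7 to 74.7. These neighbours did not differ beyond their spread, although *Hcn4* varied far less. *Isl1* was at 14.9 (10.2 to 31.6), below every *Hcn4* library. *Hcn3* at 4.23 (2.51 to 9.56) and *Hcn2* at 3.59 (1.94 to 5.73) did not differ beyond their spread, and both lay below every *Isl1* library. A level for a whole heart says nothing about the level in a pacemaker cell.

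The genes that work with these channels and regulators were described by lists. The sinus node list of transcription factors, signals and channels had 19 genes, of which 12 could be tested and 0 passed at an adjusted *P* under 0.05 in either direction. Group means were higher in the null for 13 and lower for 6, with a median log2 ratio of 0.073. *Rgs6* was at 354 ± 27.8 normalized counts in wild type against 409 ± 35.0 in the null (SD, n = 5 each), a limma difference of 0.21 with SE 0.0682 and an exact permutation *P* of 0.0238. *Kcnj5*, the partner subunit of *Kcnj3*, was at 893 ± 59.8 and 974 ± 79.8, with a limma difference of 0.12 and an exact permutation *P* of 0.111. They were the 2 genes of the list with an unadjusted limma *P* under 0.05, and both failed the adjustment (Benjamini-Hochberg adjusted *P* = 0.998). Both had their lowest wild-type value in library 3. It was 327 for *Rgs6*, against at least 337 in the other wild-type libraries, and 820 for *Kcnj5*, against at least 836. *Tbx3* was at 292 ± 61.8 and 282 ± 17.5 (exact permutation *P* = 0.73), and its wild-type values ran from 195 to 360. *Tbx18*, which marks the sinus venosus mesenchyme and the node's head, had authors' means of 956 and 1029, and *Tbx5* of 1245 and 1308. The working atrial list had 7 genes, 1 of them testable and 0 called, with means higher in the null for 5, lower for 2 and a median log2 ratio of 0.051. *Nkx2-5*, which counteracts *Shox2* and *Hcn4* in working muscle, had authors' means of 1688 and 1648. *Gja5*, the connexin 40 gene of atrial muscle, had authors' means of 2486 and 2576.

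The list of HCN partners and cyclic AMP enzymes had 21 genes, of which 10 could be tested and 0 passed. The median log2 ratio was 0.013 over its 17 genes with a mean of at least 10. *Kctd3*, which binds HCN channels, was at 736 ± 35.2 and 723 ± 12.3 normalized counts, and *Cav3*, the caveolin of muscle, was at 526 ± 40.3 and 530 ± 29.3 (SD, n = 5 each; exact permutation *P* = 0.421 and 0.849). *Kcne2*, a beta subunit, was low with 7.16 and 8.99. *Pex5l*, the neuronal HCN partner also named TRIP8b, was at 14.3 in wild-type library 3, 3.10 to 7.74 in the other wild-type libraries and 2.01 to 7.06 in the null. The list of Popeye partners had 9 genes, 7 testable and 0 called, with a median log2 ratio of 0.0029. *Kcnk2*, the potassium channel TREK-1 that Popeye proteins regulate, was at 38.7 in wild-type library 3, at 6.21 to 11.6 in the other wild-type libraries and at 4.36 to 15.1 in the null (exact permutation *P* = 0.492).

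**Figure D5:**
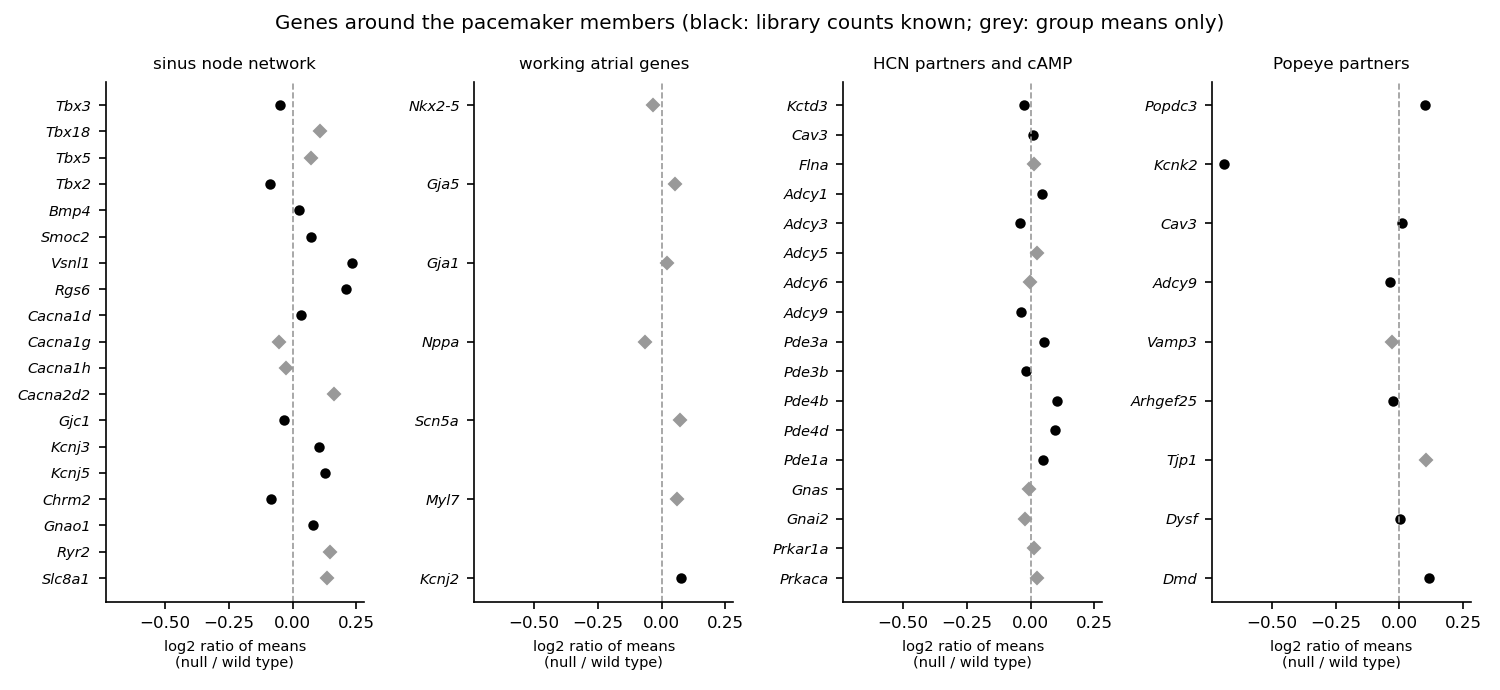
Log2 ratio of group means, *Nos1ap* null over wild type (x axis), for genes with a mean of at least 10 in the sinus node, working atrial, HCN partner and Popeye partner lists. Black dots have settled library counts, and grey diamonds have group means only. No gene passed the adjusted limma test, and *Kcnk2*, which is highest in wild-type library 3, has the lowest ratio.

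The list of the second heart field and *Isl1* cofactors had 10 analysed genes, of which 3 could be tested and 0 passed. The median log2 ratio was 0.021 over 8 genes. *Ldb1*, the cofactor that LIM homeodomain proteins bind, had authors' means of 2234 and 2244, and *Lmo4* was at 755 ± 58.4 and 713 ± 29.1 (SD, n = 5 each; exact permutation *P* = 0.175). *Fgf10*, a target of *Isl1* in second heart field cells, was at 16.9 ± 9.18 and 19.7 ± 2.62 (exact permutation *P* = 0.548). Its highest value, 32.6, was again in wild-type library 3. *Eya1*, also of this list, was highest there too, at 140 normalized counts. It was at most 39.2 in the other wild-type libraries and at most 41.9 in the null. Of the marker lists, 0 of 2 tested autonomic neuron genes, 0 of 1 foregut and lung epithelium gene and 0 of 5 limb and craniofacial genes passed the limma test. The group means of all 8 autonomic neuron genes with a mean of at least 10 were lower in the null, with a median log2 ratio of -2.50. Most of these 8 have group means only, such as *Tubb3* at 242 and 69.3 and *Stmn2* at 143 and 31.9. The settled neuron genes are those summed above, and their sum was high in wild-type library 3 alone. *Isl1* was also lower in the null, and the part of the neuron genes in that result was not tested. The 7 settled epithelium genes summed to 234 in wild-type library 3, to at most 169 in the other wild-type libraries and to 125 to 157 in the null.

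Other genes whose pattern over the 10 libraries was most like that of each settled gene were sought among 8596 protein-coding genes with a mean of at least 50, by Pearson's r on the log2 scale. For *Isl1* these were *Tmem119* (r = 0.98) and *Fam171b* (r = 0.97). For *Hcn4* they were *Tab3* and *Mt1*, both with r = 0.92. For *Shox2* they were *Pim3* (r = 0.92) and *Get4* (r = 0.91), which ranked above *Vsnl1*. For *Hcn3* they were *Plxna3* (r = 0.94) and *Frmd4a* (r = 0.93), and for *Hcn2* *Rabep1* (r = 0.91) and *Rilpl2* (r = 0.89). Leaving out the 2 libraries farthest from the member's median lowered r to 0.80 for *Fam171b*, 0.70 for *Tab3* and 0.74 for *Frmd4a*. For each gene these are the highest values among 8596 genes, and over 10 libraries such a choice can give a high r by chance. They are a description and carry no test.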

How the data were processed

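PolyA RNA of 5 wild-type and 5 *Nos1ap* null E13.5 hearts was sequenced as 100-base read pairs, and samples were grouped by the genotype in their labels. Per the submitters' processing notes, reads were trimmed with Trimmomatic 0.36, aligned with STAR within RSEM 1.2.31 to GRCm38, and compared with DESeq 1.24.0. The signal values analysed are normalized counts that the authors deposited as group means. The deposited ratio (fold change), its log2 value and the p-value and adjusted p-value are the authors' own comparison and were not used. No other columns of per-sample values (0) were present.

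Size factors were read from genes with 1 count in a single library of a group. Whole counts of single libraries were then searched in a reduced lattice for group means under 1000 printed to 15 digits, and a set was accepted where chance was expected to put no more than 0.05 further sets as close. This limit was raised from 0.01 after *Shox2* had been found unsettled. The search started from equal expression in all libraries of a group and reached a limited distance from it. Genes with a wide spread, such as *Stmn2* and *Tubb3*, can therefore be missing from the settled and tested genes. It settled 99.7% of wild-type and 99.6% of null means. Of means moved away from their true value, 3.05% settled. On simulated data, 3881 of 3987 wild-type means settled, 3 of them wrongly, and 3885 of 3981 null means, 0 of them wrongly. The simulated means were those of genes that had settled, and their spread was set in advance, not taken from each gene. The error rate at the spread of *Shox2*, *Isl1* or *Hcn3* was not tested separately. Depth per library was estimated from the size factors.

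The test across genes was limma 3.58.1 (R 4.3.3, trend, robust, log2 of the value plus a pseudocount of 1) on the 10508 protein-coding genes with settled counts and a mean of 10 or more. Single values were tested by exact two-sided permutation over 252 arrangements (126 for 4 against 5). The limma step was tested on simulated data with 200 changed genes. Fold changes on this scale understate changes of low genes. *P* values set the difference between genotypes against the spread between these embryos. Lengths, coordinates and sequences came from GENCODE release M21 on GRCm38, while the authors used an earlier release.

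The genes and lists were chosen with earlier results of these data known. Named genes are the 7 genes, *Nos1ap*, up to 4 genes of each list in written order or those passing the test, and the 2 genes most like each settled gene. *Vsnl1*, *Rgs6*, *Kcnj3*, *Kcnj5*, *Gjc1*, *Eya1*, *Fgf10*, *Elavl4*, *Th*, *Dbh* and *Ret* were named after their values were seen. Some genes of the lists are not reported here, and the lists were counted without them. *Pde2a* has several entries and was left out, and *Lhx1*, *Nkx2-1* and *Shox* are not analysed here. Alternatives changed the pseudocount, the weights, the filter, the scaling, the gene types, the limit on settled counts and the libraries.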

Additional observations from a re-analysis of the deposited data

Results flagged for a closer look

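Wild-type library 3 lay apart from the other 4 wild-type libraries in 3 values. *Hcn3* was at 39.7 normalized counts there, with a gap to the next library of 0.791 of the group's range. Of the summed normalized counts of *Hcn2*, *Hcn3* and *Hcn4*, the *Hcn3* share was 9.51%, with a gap of 0.815 of the range, and the *Hcn4* share was 86.1%, with a gap of 0.812. Each gap is above Dixon's 95% critical value of 0.71 for 5 samples. Chance alone passes it in about 1 of 20 groups, and 16 groups were checked. The shares are parts of one whole and are not separate observations. The same library held 580 summed normalized counts of autonomic neuron genes, and their part in these values was not tested.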

How the results depend on the processing

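None of the 5 settled genes passed the adjusted limma test under any alternative, which were a pseudocount of 0.5, voom weights, no filter on low values, rescaled libraries, genes of every type, a limit of 0.01 on settled counts (added after seeing the data) and each library left out in turn. All genes called numbered 3 in each of the first 6 and 2 to 3 with a library left out. With a library left out, log2 differences ran from 0.11 to 0.19 for *Hcn4*, -0.69 to -0.37 for *Isl1*, 0.03 to 0.49 for *Shox2*, -0.024 to 0.33 for *Hcn2* and -0.22 to 0.23 for *Hcn3*. Without wild-type library 3 the limma interval of *Hcn4* included 0 (-0.0077 to 0.23). The direction turned for *Hcn3* without wild-type library 3 (0.23), null library 1 (0.032) and null library 2 (0.022), and for *Hcn2* without wild-type library 5 (-0.024), and the cause was not tested. The difference in the *Hcn4* share, 0.988 percentage points, ran from -0.748 to 1.59, and it turned only without wild-type library 3 (-0.748). Under the limit of 0.01 *Shox2* has no value, and its other settings gave 0.18 to 0.20. After rescaling, the exact permutation *P* was 0.0238 for *Hcn4* and for *Isl1*, 0.579 for *Shox2*, 0.810 for *Hcn2* and 0.825 for *Hcn3*. The share of all tested genes with an exact *P* this low is not given here. No paired analysis was possible because the values of single libraries carry no replicate number of the labels. Depth limits *Hcn2* and *Hcn3*, and the library counts of *Popdc2* and *Bves* were not searched for.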
